A study of Mus musculus with 2 samples.

Results

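Condensin, cohesin and topoisomerase II are the enzymes that fold chromosomes and separate their DNA strands. The 10 genes described here were taken by name, whatever their values: Smc2 and Smc4, which encode the ATPase pair shared by both condensins, Ncapd2, Ncapg and Ncaph of condensin I, Ncapg2 and Ncapd3 of condensin II, Smc1a and Smc3, the ATPase pair of cohesin, and Top2a, which encodes topoisomerase II alpha. All 10 had a probe set whose array annotation names only that gene, out of 18193 genes so named, and 26 such probe sets represent them. The mice were BALB/c nude, which lack a thymus and have few mature T cells, and RNA of the whole liver was measured in an active regeneration sample taken 3 days after 70% of the liver was removed by surgery and in a control sample that the labels place at day 0 after the same operation. Each day had 1 sample on 1 Affymetrix expression array, and the labels do not say whether it held 1 animal or a pool. No p-value, standard error or interval between the days could therefore be computed. Effects of time, of the operation and of the individual mouse cannot be told apart. No sham-operated sample was analysed here.

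Both condensins are rings built from the Smc2 and Smc4 ATPases, a kleisin subunit that closes the ring and a pair of HEAT-repeat subunits that bind DNA. In vertebrate cells condensin II sits in the nucleus through interphase, whereas condensin I meets the chromosomes after the nuclear envelope breaks down, and together they compact the mitotic chromosome. Cohesin has the same plan, but it forms loops in interphase chromatin of dividing and resting cells alike, and it also holds sister chromatids together from S phase to anaphase. Topoisomerase II alpha untangles the sister DNA molecules, and its gene is known for expression in proliferating cells, unlike that of its relative topoisomerase II beta. Adult hepatocytes rarely divide, and after partial hepatectomy they re-enter the cell cycle.

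The promoters of 4 of the members are shown because the members divide into genes with a large difference between the days (Top2a and Smc2) and genes without one (Smc3 and Smc1a). The sequences are those of RefSeq on GRCm38.p6, 5′ to 3′ on the strand of the gene, and end at the base before the gene's outermost annotated start. Top2a is at chr11:99024200-99024439 (minus strand), Smc2 at chr4:52438971-52439220 (plus strand), Smc3 at chr19:53600146-53600395 (plus strand) and Smc1a at chrX:152016178-152016427 (plus strand). Capitals mark the CHR letters (TTTGAA or else TTCGAA, on either strand; the cell cycle genes homology region is a site of the MuvB complexes) and the CCAAT letters (CCAAT, on either strand; the site of the factor NF-Y).
Top2a: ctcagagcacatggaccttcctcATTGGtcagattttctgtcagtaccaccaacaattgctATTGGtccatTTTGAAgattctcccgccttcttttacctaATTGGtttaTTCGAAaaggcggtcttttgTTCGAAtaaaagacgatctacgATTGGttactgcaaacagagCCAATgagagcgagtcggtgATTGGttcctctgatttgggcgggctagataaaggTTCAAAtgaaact
Smc2: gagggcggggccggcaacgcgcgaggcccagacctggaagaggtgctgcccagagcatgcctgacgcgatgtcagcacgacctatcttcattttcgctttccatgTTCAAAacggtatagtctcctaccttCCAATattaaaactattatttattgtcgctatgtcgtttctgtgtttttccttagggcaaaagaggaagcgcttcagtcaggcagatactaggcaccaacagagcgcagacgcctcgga
Smc3: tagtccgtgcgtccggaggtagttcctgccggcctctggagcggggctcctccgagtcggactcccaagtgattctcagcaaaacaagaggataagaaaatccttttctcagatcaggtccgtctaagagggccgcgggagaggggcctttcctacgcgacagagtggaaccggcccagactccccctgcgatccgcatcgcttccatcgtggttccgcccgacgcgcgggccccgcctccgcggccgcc
Smc1a: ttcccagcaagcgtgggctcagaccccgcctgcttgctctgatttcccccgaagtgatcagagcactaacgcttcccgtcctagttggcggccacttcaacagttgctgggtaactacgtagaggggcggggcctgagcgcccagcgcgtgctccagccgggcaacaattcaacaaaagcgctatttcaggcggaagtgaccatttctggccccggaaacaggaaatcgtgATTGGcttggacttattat

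The stretch of Top2a holds 4 CHR and 6 CCAAT matches, that of Smc2 holds 1 of each, that of Smc1a holds 1 CCAAT match and that of Smc3 holds neither. RefSeq windows from 250 bases before to 50 bases after a start were found for 9 of the 10 members, all but Smc4. A CHR match lay in a window of 5 of the 6 condensin genes (Smc2, Ncapg, Ncapd2, Ncapg2 and, at its other annotated start only, Ncapd3), in that of Top2a, and in neither cohesin window. Among all 32851 windows, 19.2% held a CHR match and 0.0244% held at least 4. A CCAAT match lay in the windows of 3 condensin genes (Smc2, Ncapg and Ncapd2), Top2a and Smc1a, against 37.4% of all windows, and 0.0791% of all windows held at least 6. The E2F letters TTTCGCGC, or TTTGGCGC, or TTTCCCGC on either strand were in the windows of Ncapg, Ncapd2, Ncapg2 and Smc1a, against 1.84% of all windows. No match overlapped another in these windows, and the window of Ncaph held none of the 3 motifs. The motifs were chosen after the ratios were seen, and a match is a description of letters, not of a bound site.

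**Figure D1:**
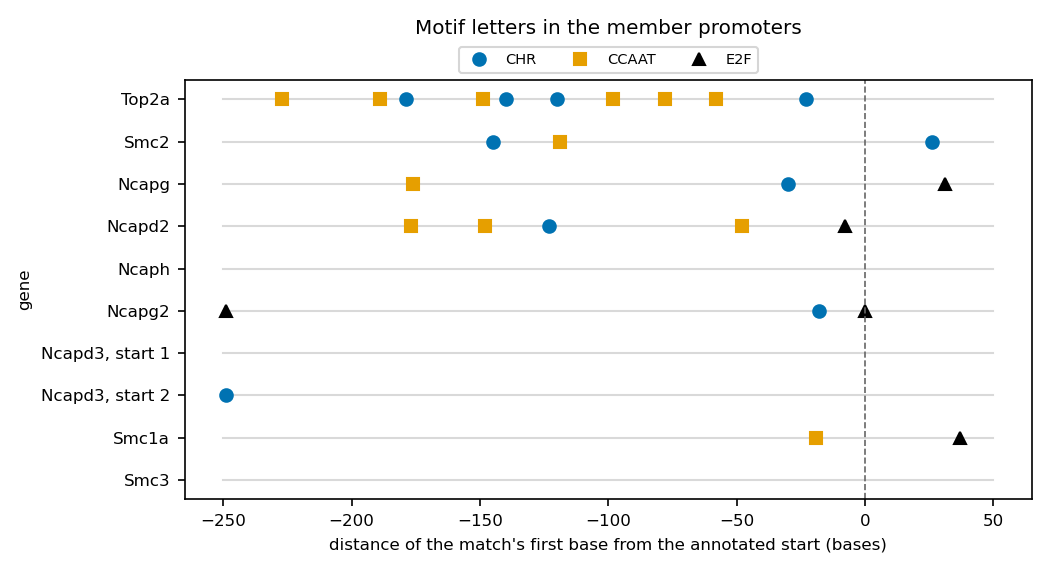
Positions of the CHR, CCAAT and E2F letters in the promoter windows of 9 members, by distance in bases of the match's first base from the annotated start (dashed line at 0). Top2a carries 4 CHR and 6 CCAAT matches, while Smc3 and Ncaph carry none.

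Signals are the deposited linear intensity values. A signal under 68.3, the higher of the 2 array medians, was set to that floor, and a fold difference against a floored signal gives only the least size it can have, which is marked by the words at least. Each gene was read from its brightest probe set (by mean log2 signal over both arrays) and counts as higher or lower at 2-fold, day 3 against day 0. As a yardstick, the log2 ratio had an SD of 0.44 between probe sets of 1 gene (n = 4380 genes), which covers differences between probes on these arrays and not differences between animals.

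At day 3, 7 of the 10 members were at least 2-fold higher than at day 0, none was 2-fold lower, and Ncapd3, Smc1a and Smc3 were under 2-fold. Among the 12634 genes above the floor on at least 1 array, 12.9% were at least 2-fold higher and 5.62% at least 2-fold lower. Higher genes made up 69.6% of all genes past 2-fold in either direction, and 31.6% after median centring, 58.2% after quantile normalisation and 86.3% after scaling to the hybridisation spikes. All 7 were also at least 4-fold higher, as were 3.27% of all genes. The condensin genes had a median log2 ratio of 2.81 (6 of 7 higher), the cohesin pair one of 0.07 (0 of 2), Top2a one of 4.87, and all genes analysed one of 0.08. The difference between the condensin and cohesin medians was 2.73 on the log2 scale, or 6.65-fold. The lowest condensin gene, Ncapd3, lay above the highest cohesin gene, Smc1a, by 0.35, which is less than the SD between probe sets.

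**Figure D2:**
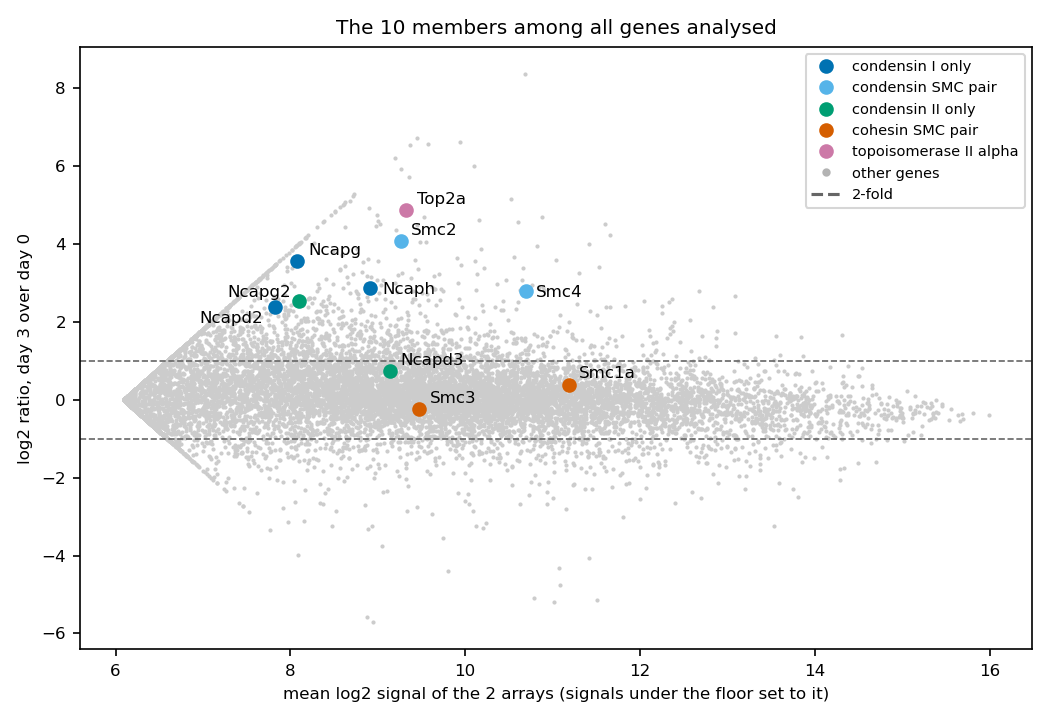
Log2 ratio of day 3 over day 0 (vertical) against the mean log2 signal of the 2 arrays (horizontal) for all 12634 genes analysed, with the 10 members coloured by complex and dashed lines at 2-fold. Top2a, Smc2 and Ncapg lie highest among the members, and Ncapd3, Smc1a and Smc3 lie between the dashed lines; the slanted edges of the cloud are genes at the floor on 1 array.

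Of the 26 probe sets of the members, 20 were above the floor on at least 1 array and 6 on neither. Of these 20, 12 were at least 2-fold higher at day 3 and none was 2-fold lower, while 11.2% of the 21676 named probe sets analysed were at least 2-fold higher. The count includes 5 probe sets that were above the floor at day 3 only and could not have been lower. Among the 15 above the floor on both arrays, 9 were higher, and the share of all named probe sets under that stricter filter was not computed.

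**Figure D3:**
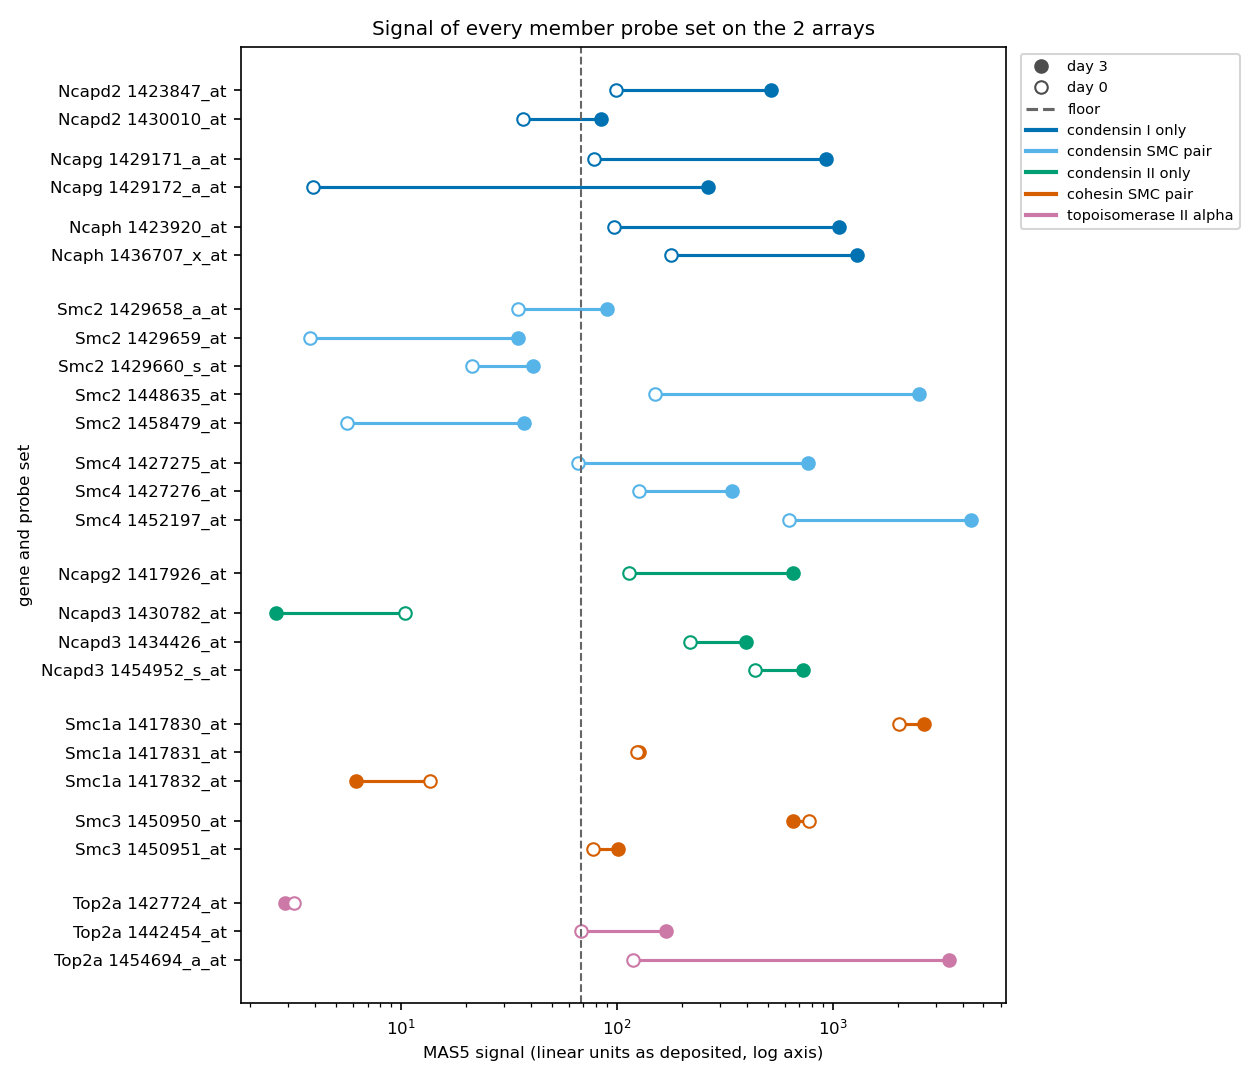
Deposited signal (horizontal, log axis) of each of the 26 member probe sets at day 3 (filled) and day 0 (open), coloured by complex, with the floor of 68.3 dashed. Long lines to the right mark the condensin I genes, Smc2, Smc4, Ncapg2 and Top2a, and the lines of the cohesin pair above the floor are short; signals of different probe sets are not on a common scale of RNA amount.

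Both ATPases of condensin were higher at day 3. Smc2 had a signal of 2521 at day 3, against 149.6 at day 0, a 16.9-fold difference. A second probe set gave 90.1 at day 3 and 34.7 at day 0, at least 1.32-fold. Its other 3 probe sets stayed under the floor on both arrays, with 34.8 to 40.8 at day 3 and 3.78 to 21.4 at day 0, so the size for Smc2 rests on its brightest probe set. Smc4 had 4370 at day 3 and 625.3 at day 0 on its brightest probe set, a 6.99-fold difference. Both other probe sets of Smc4 were higher as well: one gave 767.7 at day 3 against 65.9 at day 0, at least 11.2-fold, and the other gave 339.8 at day 3 against 126.7 at day 0, 2.68-fold. For Smc4, therefore, all 3 probe sets had the same direction, with sizes that differed between them.

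All 3 subunits particular to condensin I were higher at day 3. Ncapg, a HEAT-repeat subunit, had a signal of 933.0 at day 3 against 78.6 at day 0, which is 11.9-fold, and its second probe set had 263.0 at day 3 against 3.89 at day 0, at least 3.85-fold. Ncaph, the kleisin, had 1300.4 at day 3 and 177.8 at day 0 on its brightest probe set, 7.31-fold, and 1070.2 at day 3 and 97.1 at day 0 on the other, 11.0-fold. Ncapd2, the other HEAT-repeat subunit, had 517.5 at day 3 and 98.9 at day 0, 5.23-fold. Its second probe set was dim, with 84.6 at day 3 and 36.9 at day 0, at least 1.24-fold. Day 0 signals of the brightest probe sets lay between 78.6 and 177.8, near the floor, so the size of these folds depends on where the floor is set. With the floor at the 75th percentile Ncapd2 had a log2 ratio of 0.29 and was no longer 2-fold higher, and neither was Ncapg2 of condensin II, at 0.63.

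The condensin II subunits differed from each other. Ncapg2, a HEAT-repeat subunit with a single probe set, had a signal of 656.0 at day 3 and 113.9 at day 0, a 5.76-fold difference. Ncapd3, the other HEAT-repeat subunit, had 726.5 at day 3 and 434.6 at day 0, 1.67-fold, and 394.8 at day 3 and 217.5 at day 0 on a second probe set, 1.82-fold. Its last probe set lay under the floor on both arrays. Ncaph2, the kleisin of condensin II and not one of the 10 genes, had 1762 at day 3 and 1373 at day 0 on its brightest probe set, 1.28-fold, while its other 3 probe sets ranged between 1.37-fold and 2.02-fold higher. The median log2 ratio was 2.87 for the 3 genes of condensin I alone and 1.63 for the 2 of condensin II, or 0.74 for condensin II with Ncaph2. With 2 members that differ this much, the gap between the complexes is a description of single genes.

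The cohesin pair stayed under 2-fold on each of its 4 probe sets above the floor. Among all named probe sets analysed, 11.2% were at least 2-fold higher. Smc1a had a signal of 2664 at day 3 and 2034 at day 0, 1.31-fold higher, and 126.5 at day 3 and 123.5 at day 0 on a second probe set. Smc3 had 654.4 at day 3 and 775.8 at day 0, 1.19-fold lower, and 100.8 at day 3 and 77.6 at day 0 on a second probe set, 1.30-fold higher. No direction can be given for either gene: the probe sets of Smc3 disagreed, and Smc1a had a log2 ratio of −0.09 after median centring and Smc3 one of 0.05 after scaling to the hybridisation spikes.

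The rest of the somatic cohesin core also stayed under 2-fold on its brightest probe sets, which gives 0 of 5 core genes higher and a median log2 ratio of 0.00. For so few genes that count is near the share of all genes, of which 12.9% were higher. Rad21, the kleisin that separase cuts at anaphase, had 2487 at day 3 and 1650 at day 0, 1.51-fold higher, with other probe sets at log2 ratios of 1.24 and −0.48. Stag1, one of the alternative HEAT-repeat subunits, had 1047 at day 3 and 1045 at day 0, and its other 5 probe sets ranged from −0.39 to 0.89. Stag2, the other one, had 1272 at day 3 and 2061 at day 0, 1.62-fold lower, and 206.4 at day 3 and 509.7 at day 0 on its second probe set, 2.47-fold lower. After median centring the brightest probe set of Stag2 was also 2-fold lower, at a log2 ratio of −1.18. Of 3 meiotic cohesin genes with a probe set, Smc1b and Stag3 were under the floor on both arrays, and Rec8 had 96.2 at day 3 and 50.9 at day 0.

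Of 7 genes whose products load, release or position cohesin, 1 was higher and none lower, and the median log2 ratio was 0.46. That count is near the share of all genes, 12.9% higher and 5.62% lower. Hdac8, which deacetylates Smc3 so that cohesin can be reused, was 2.49-fold higher, with 189.1 at day 3 and 75.9 at day 0. Ctcf, the insulator protein at which cohesin loops stop, was 1.78-fold higher and Pds5a, a regulator that binds the cohesin ring, 1.74-fold higher. The loader genes Nipbl and Mau2 had log2 ratios of 0.06 and −0.39 on their brightest probe sets, and other probe sets of each had the opposite sign.

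Of 7 genes that acetylate, protect or cleave cohesin during the cell cycle, 6 were higher, with a median log2 ratio of at least 3.01, since 4 of the 7 were under the floor at day 0. These 4 passed the filter through day 3 and could not have been lower. A 75th percentile floor left 6 of the genes above it and 3 higher, with Sgo2a at 0.40. Among all genes 12.9% were higher, and 7.47% with the 75th percentile floor. Esco2, the acetyltransferase that makes cohesin cohesive in S phase, had a signal of 1057 at day 3 and 52.7 at day 0, at least 15.5-fold. Cdca5, which encodes sororin, the guard against release of cohesin, had 1354 at day 3 and 95.7 at day 0, 14.2-fold, and 4.49-fold on its second probe set. Sgo2a, one of the shugoshins that shield centromeric cohesin, had 559.1 at day 3 and 8.52 at day 0, at least 8.19-fold. Pttg1, which encodes the separase inhibitor securin, was 5.53-fold higher, and Esco1, the acetyltransferase that also acts outside S phase, was 1.19-fold higher.

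Top2a had a signal of 3473 at day 3 and 118.7 at day 0, a 29.2-fold difference. A second probe set gave 169.0 at day 3 and 67.9 at day 0, at least 2.48-fold, and the last one lay under the floor with 2.88 at day 3 and 3.19 at day 0. The size for Top2a therefore rests on its brightest probe set: the mean over its probe sets was 3.09 on the log2 scale. The log2 ratio was 1.31 when probe sets marked as shared (_s_at, _x_at or _a_at) were left out. The brightest probe set of Top2a ends in _a_at, a suffix for sequence shared by transcripts of the same gene, not by other genes.

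None of the other 5 topoisomerase genes reached 2-fold, except Top3a after spike scaling. Top2b, the isoform known from resting and differentiated cells, had 847.0 at day 3 and 1025 at day 0, 1.21-fold lower, and was 1.59-fold lower on a second probe set. Top2a and Top2b differed by 5.15 in log2 ratio. Top3a, which unlinks recombination and replication intermediates, was 1.92-fold higher with 287.6 at day 3 and 149.5 at day 0, and Top1, which relaxes supercoils ahead of polymerases, 1.21-fold higher. Top3b had a log2 ratio of 0.13 and the mitochondrial Top1mt one of −0.46. Among the repair and partner genes, Rmi1, a subunit of the complex that holds topoisomerase III alpha, was 2.02-fold higher but under 2-fold in all alternatives except spike scaling and the floor at the 25th percentile (lowest log2 ratio 0.35, without shared probe sets). Tdp1 had a log2 ratio of 0.47 and Tdp2 one of −0.47. Over the list of 8, 1 gene was higher, near the 12.9% of all genes, none was lower, and the median was 0.20.

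The genes of the SMC5/6 complex, which acts in DNA repair, also stayed under 2-fold on their brightest probe sets, except Nsmce1 after spike scaling. Of 7 genes of SMC5/6 and Smchd1, 1 was higher, near the 12.9% of all genes, and none lower, with a median of 0.27. Smc6, one of its ATPases, had a log2 ratio of 0.44. Smchd1, an SMC hinge protein of the inactive X chromosome, was 2.23-fold higher with 842.2 at day 3 and 377.7 at day 0, and Nsmce1, a subunit of the complex, was 1.73-fold higher. The subunit gene Nsmce3 had a log2 ratio of 0.17, and Nsmce4a was 1.20-fold lower on its brightest probe set and 2.30-fold lower on the other.

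Of 8 genes whose products act on condensin or share the mitotic chromosome with it, 7 were higher, with a median log2 ratio of at least 4.10. Of the 8, 4 were under the floor at day 0 and could not have been lower, and a 75th percentile floor left 5 of the 8 higher. The share of all genes that was higher was 12.9%, and 7.47% with the 75th percentile floor. Mki67, which encodes the coat protein of the mitotic chromosome surface, had 4780 at day 3 and 79.2 at day 0, 60.4-fold. Nusap1, a microtubule-binding protein on mitotic chromatin, was at least 37.9-fold higher and Plk1, a mitotic kinase that phosphorylates condensin, at least 28.7-fold. Mcph1, an inhibitor of condensin II, was 2.31-fold higher on its brightest probe set, with 907.1 at day 3 and 392.1 at day 0, and at least 1.20-fold higher on the other. Ppp2r1a, a scaffold of the phosphatase PP2A, had 5482 at day 3 and 5500 at day 0.

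**Figure D4:**
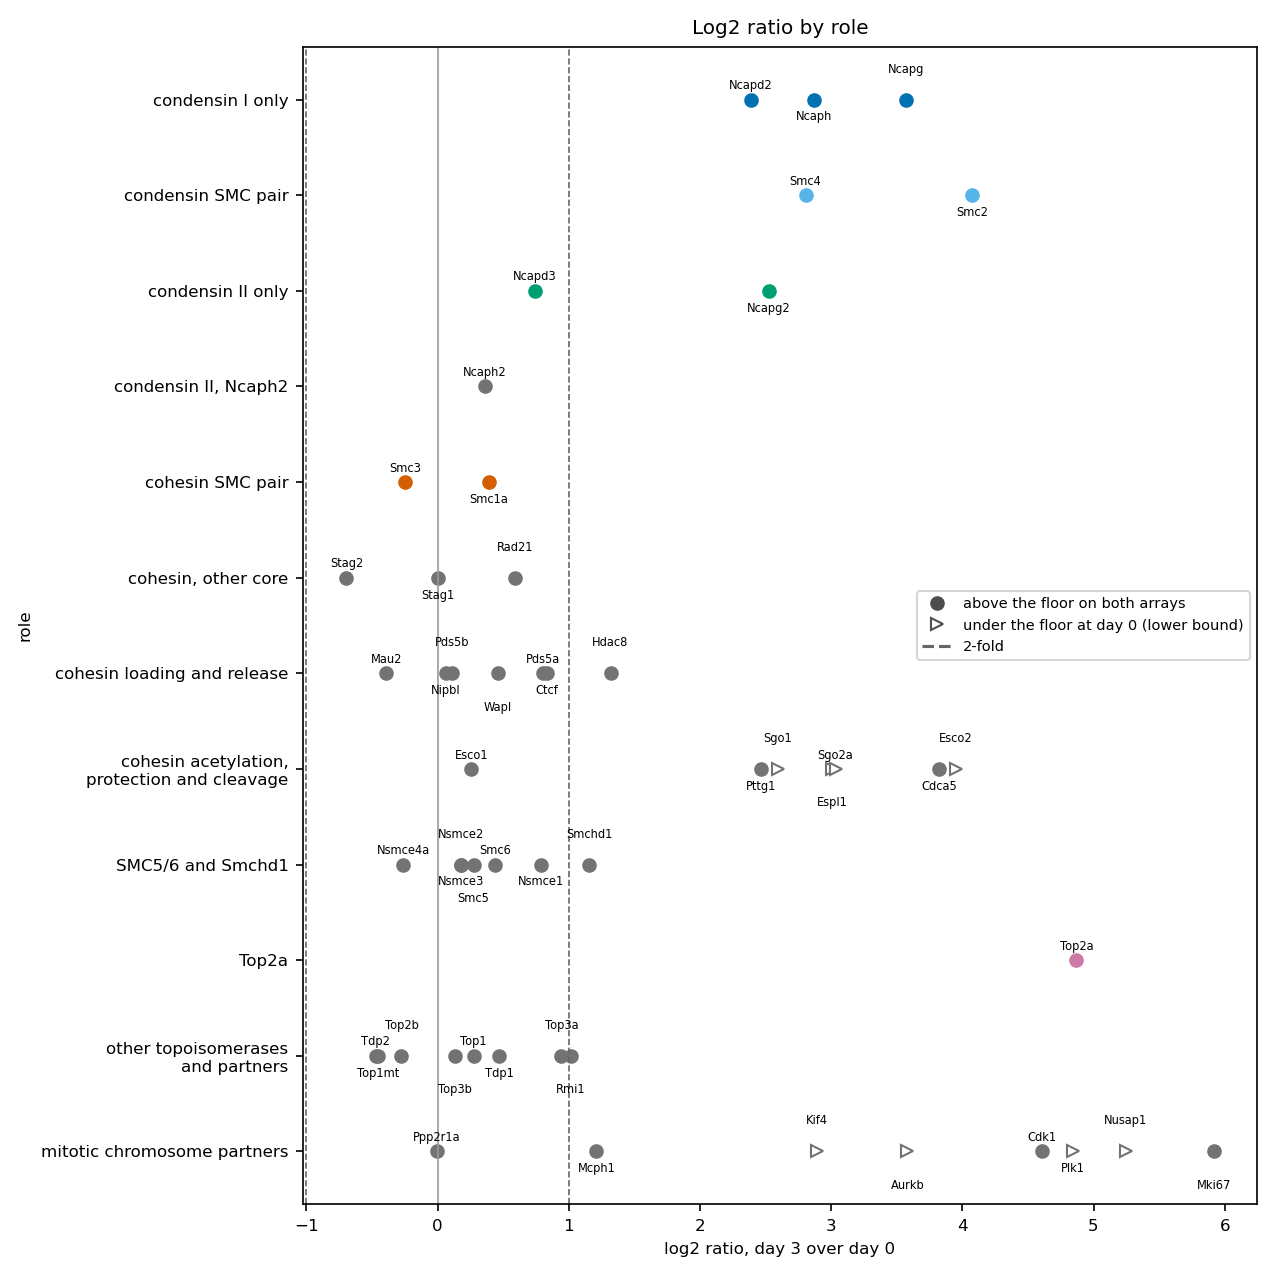
Log2 ratio of day 3 over day 0 (horizontal) of each member and related gene above the floor, in rows by role. The meiotic cohesin gene Rec8 is not drawn. Open triangles are lower bounds for genes under the floor at day 0, and dashed lines mark 2-fold. Condensin I, Smc2, Smc4, Ncapg2, Top2a, the S phase and mitotic regulators of cohesin and most mitotic partners lie right of 2-fold, while the cohesin core, SMC5/6 and the other topoisomerases lie within it, with Hdac8, Smchd1 and Rmi1 just beyond.

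The order of the complexes held in most alternative settings. Every condensin member analysed lay above both cohesin genes in 8 of 9 alternatives. In the ninth, the floor at the 75th percentile, 6 of 7 did, with Ncapd2 below Smc1a. Some of the 8 are no test of the order, because they could not reorder Ncapd3, the lowest condensin gene there, and Smc1a. Median centring (0.26 and −0.09) and spike scaling (1.03 and 0.68) shifted both log2 ratios alike. The lower floor left them unchanged (0.74 and 0.39). The condensin median ranged from 1.14 to 3.10, the cohesin median from −0.41 to 0.36 and Top2a from 1.31 to 5.16 over the alternatives. Spike scaling and median centring moved the median of all genes to 0.36 and −0.35. With spike scaling Ncapd3 passed 2-fold, at a log2 ratio of 1.03, as did Pds5a (1.09), Ctcf (1.12), Top3a (1.24) and Nsmce1 (1.08). After median centring Hdac8, Rmi1, Smchd1 and Mcph1 were under 2-fold, at 0.84, 0.53, 0.67 and 0.73. Smchd1 was also under 2-fold after quantile normalisation (0.96) and under the 75th percentile floor (0.99), Mcph1 with the mean over probe sets (0.73), and Hdac8 was not above that floor on either array. After median centring the small differences of Ncaph2 (−0.12), Top1 (−0.21), Top3b (−0.35), Tdp1 (−0.01), Smc6 (−0.04), Nsmce3 (−0.31), Nipbl (−0.42) and Esco1 (−0.23) turned negative. Those of Top2b (0.02) and Nsmce4a (0.03) turned positive with spike scaling, so no direction can be given for these 10 genes.

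**Figure D5:**
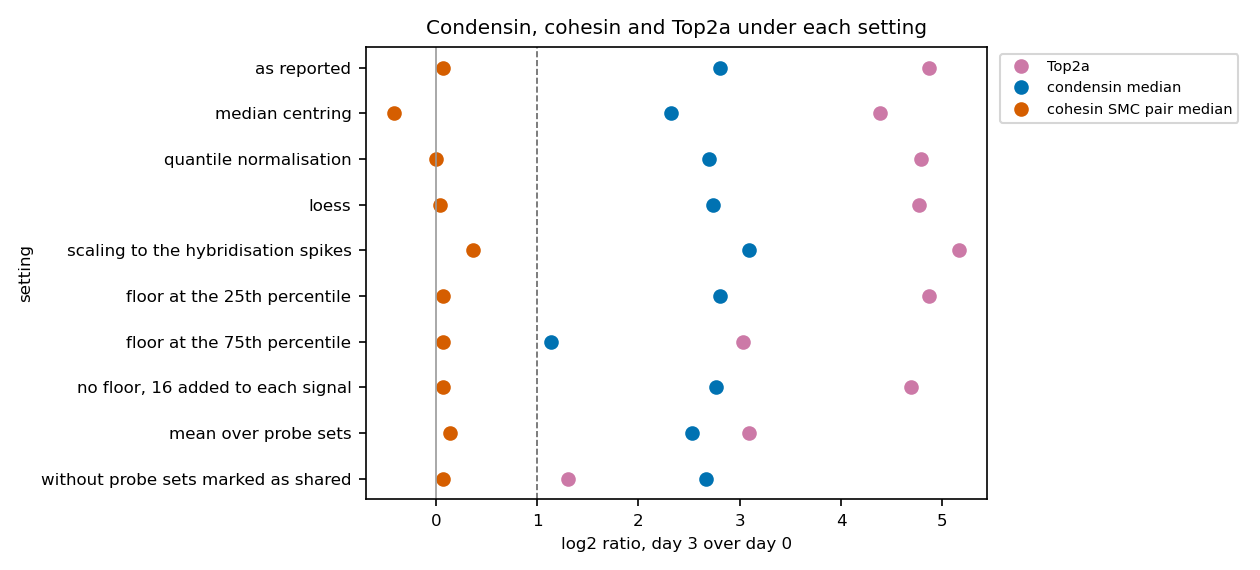
Log2 ratio of day 3 over day 0 for Top2a, the median of the condensin genes and the median of the cohesin pair (horizontal) under each setting (vertical), with lines at 0 and at 2-fold. The condensin median lies between 1.14 and 3.10 and the cohesin median between −0.41 and 0.36 in the alternatives. Top2a drops to 1.31 without probe sets marked as shared, among them its brightest, which ends in _a_at.

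Some cell type markers and the ratios of the added poly-A control RNAs also differed between the samples. The part of cell makeup and of labelling in these results was not tested, and the quality of the liver RNA was not analysed here. In bulk tissue a change in the number of cells of a type and a change of RNA per cell cannot be told apart. All 5 hepatocyte markers measured, Alb and Ttr among them, were bright and under 2-fold (summed signal 182938 at day 3 and 240028 at day 0), as were all 6 sinusoidal endothelial markers (5255 at day 3 and 7008 at day 0). For scale, 12.9% of all genes analysed were at least 2-fold higher and 5.62% at least 2-fold lower. Of 6 macrophage markers 4 were higher, with a summed signal of 17959 at day 3 and 6560 at day 0. Of 5 bile duct markers above the floor 3 were higher (summed signal 1112 at day 3 and 276.2 at day 0), of 6 stellate markers 2 (15602 at day 3 and 9735 at day 0), and of 4 neutrophil markers 2, S100a8 and S100a9 (1303 at day 3 and 348.6 at day 0), while Mpo and Camp were under the floor. The T cell markers Cd3e, Cd3d, Cd3g and Cd4 were under the floor on both arrays, and Cd8a had 100.2 at day 3 and 70.5 at day 0. The 3 B cell markers above the floor were under 2-fold (165.4 at day 3 and 300.7 at day 0). Of 4 erythroid genes (5609 at day 3 and 10392 at day 0), Klf1 was at least 4.01-fold lower, Alas2 was 3.21-fold lower and Tfrc, the transferrin receptor gene, was 2.53-fold higher. Among these markers Krt7, Epcam and Cftr (bile duct), Des and Col1a1 (stellate) and S100a8 (neutrophil) were under the floor at day 0 and could not have been lower. Ngp (neutrophil), Ms4a1 and Blk (B cell) and Klf1 were under it at day 3 and could not have been higher. Poly-A control RNAs had a larger 3′ to 5′ ratio on the day 3 array for 8 of 8 probe set pairs (median 2.13 times the day 0 ratio). These pairs are not independent, because the same control RNA is represented by several of them. The median log2 ratio was −1.20 at the 5′ ends and −0.12 at the 3′ ends. Where the members' probe sets lie along their transcripts was not analysed here.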

How the data were processed

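Messenger RNA of whole liver was measured on 1 array for day 3 and 1 for day 0. The deposited unit is linear intensity per probe set, from GCOS and MAS5 per the submitters' processing notes, whose versions and scaling target were not given in the sources used here. Both arrays had a mean of 500.0 with 2% trimmed at each end. The number of arrays limits the precision. Of 45101 probe sets, 34945 had 1 gene symbol in the array annotation supplied with the data, 932 several and 9160 none, besides 64 controls; those with 1 symbol were used. By Entrez ID, RefSeq (GRCm38.p6) gave the same symbol for all 10 members.

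Arrays were used without further scaling, and the floor, the gene rule and the 2-fold threshold are those given above. The alternatives were median centring over named genes, quantile normalisation, loess (fraction 0.3), spike scaling, floors at the 25th and 75th percentile, and 16 added to each signal without a floor. Others were averaging a gene's probe sets, leaving out those marked as shared (_s_at, _x_at or _a_at), and 1.5-fold or 4-fold as the threshold. The suffix _a_at marks sequence shared by transcripts of the same gene, not by other genes. Members, lists and settings were chosen with earlier results of these data known, and the settings for the related genes were added after their values were seen. All members are named; of related lists all genes of the cohesin core, condensin II and topoisomerase lists are named, and of the others up to 3 with the highest and up to 2 with the lowest ratio. The steps were tested on simulated data. The simulated ratios were put into genes well above the floor at day 0. Folds from day 0 signals near the floor, or as large as that of Top2a, were therefore not covered. Python 3.11.15, pandas 2.3.3 and statsmodels 0.14.6 were used.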

Additional observations from a re-analysis of the deposited data

How the results depend on the processing

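No p-value exists for any result, so a value is said to have moved where it changed by more than the SD between probe sets (0.44) or, for a count, by over 1.5 times. Of 137 recomputed values of the members and their groups, 110 did not move and 27 did, and no difference of at least 2-fold turned its direction. Much of this tally was fixed by the settings. The hybridisation spikes had a median log2 ratio of −0.29, so scaling to them shifted ratios by less than the SD. The lower floor could not change the member genes, and median centring shifted each of them by more than the SD. Neither such shifts nor another floor could reverse a 2-fold difference of a probe set. Median centring gave 2.32 for the condensin median, −0.41 for the cohesin median and 4.39 for Top2a by its shift of every ratio above the floor. With the floor at the 75th percentile, which raises the day 0 signals, 6 member probe sets and 5 member genes were higher. The share of all genes higher there was 7.47%. With that floor the condensin median was 1.14, the difference between condensin and cohesin 1.07 and Top2a 3.03. Top2a was 3.09 as a mean over probe sets and 1.31 without shared ones. Ncapg has no probe set there, because both of its own end in _a_at. The number of genes higher over all genes was 836 after median centring, 574 with the floor at the 75th percentile and 2401 with spike scaling, against 1625, and that of genes lower was 1834 with the lower floor, 406 with the higher one, 1770 with none, 1807 after median centring and 380 after spike scaling, against 710. No paired analysis was possible because each day has 1 sample. Day 0 signals near the floor limit the precision of the condensin and Top2a folds.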
